A study of Leucoraja erinaceus with 6 samples.

Results

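Neurotrophic, guidance and adhesion receptors were examined in pectoral fin motor neurons and tail spinal cord cells of the little skate (Leucoraja erinaceus), a cartilaginous fish with large paired pectoral fins. The group holds 5 genes of the 7080 rows of the deposited table, taken by contig name: NGFR, GFRA3, NRP1, NRP2 and CDH7. Both groups were wild type, came from spinal cord at stages 30 to 31 and were sorted by hand, and no treatment is given in the labels. The pectoral group holds 3 libraries (replicates 1, 2 and 3) and the tail group 3 libraries (replicates 1, 2 and 4). The groups differ in cell class as well as in axial level, so these cannot be told apart. Nothing in the labels says whether embryos were pooled or whether each library had its own, so the p-values refer to the spread among these libraries alone, part of which may be technical.

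Growing motor axons depend on signals met along their path and in the muscle. Neurotrophins and ligands of the GDNF family reach receptors on the axon and support survival and growth. Neuropilins bind secreted semaphorins and steer axons at choice points, and in mouse they act on the axons of limb-innervating motor neurons. Type II cadherins are cell surface adhesion proteins whose combinations sort motor neurons into pools in the chick spinal cord.

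Values are TPM, a transcript abundance scaled for contig length and library total, so levels can be compared between rows. A row may hold only part of the signal of a gene. Each row is a contig of a Trinity assembly, which joins reads into transcripts without a genome, paired with 1 protein accession. The receptors are described as nerve growth factor receptor b, GDNF family receptor alpha 3, neuropilin 1a, neuropilin 2b and a type II cadherin, and the symbols stand for these protein matches, not for verified skate genes. No contig sequence was used here. Read depth per library is unknown. The rows summed to 50000 TPM in pectoral replicate 1 and to 48449 to 74224 TPM in the other libraries. Whether rows were selected on that library or its values were rescaled is not given in the labels or file headers, so its few zeros and its TPM, and shares of rows that rest on them, may not compare directly with the other libraries. Pectoral replicate 1 had 5 rows at 0 and tail replicate 4 had 3552 of 7080, with 1051 to 2169 in the other libraries. A value of 0 is therefore given as listed at 0 and not as absence. Of the motor neuron markers, 4 of 10 had a described row, and their summed level was 7.99 to 11.6 TPM in pectoral and 2.91 to 5.96 TPM in tail libraries. Gene by gene this list was mixed. For ISL1 and ISL2 the groups did not overlap, with pectoral higher (log2 differences 1.56 and 1.11), as in 4.60% of all rows. In the comparison of all rows given below ISL1 did not pass (limma adjusted p = 0.625), and ISL2 was too low to test. ISL1 was high enough to test through its pectoral libraries alone. CHAT overlapped, at 2.61, 3.72 and 0 TPM in the pectoral group and 2.85, 2.81 and 0.522 TPM in the tail group (log2 difference -0.13). SLC18A3 overlapped too (log2 difference 0.75). In bulk samples like these, fewer cells of a type and less RNA per cell cannot be told apart.

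The receptors showed 2 patterns. NGFR, GFRA3 and CDH7 were listed at 0 in all 3 tail libraries and had signal in pectoral libraries, while NRP1 and NRP2 had their highest values in tail libraries and stayed under 1 TPM in every pectoral library. Over all 7080 rows, 487 (6.88%) were listed at 0 in all 3 tail libraries. The table holds 0 rows listed at 0 in all 3 pectoral libraries, so the mirror image of the first pattern could not have been seen in it. Of the 5 receptors 1, NGFR, reached 1 TPM in at least 3 libraries and was tested in the comparison of all rows, and it did not pass. It met this minimum through its pectoral libraries alone. In that comparison 0.0800% of the 3752 tested rows passed in either direction (limma, Benjamini-Hochberg adjusted p under 0.05), 0.0533% higher in pectoral and 0.0267% higher in tail libraries. A higher pectoral mean log2 value was found in 3 of the 5 receptors, in 53.0% of all rows and in 43.5% of tested rows.

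**Figure D1:**
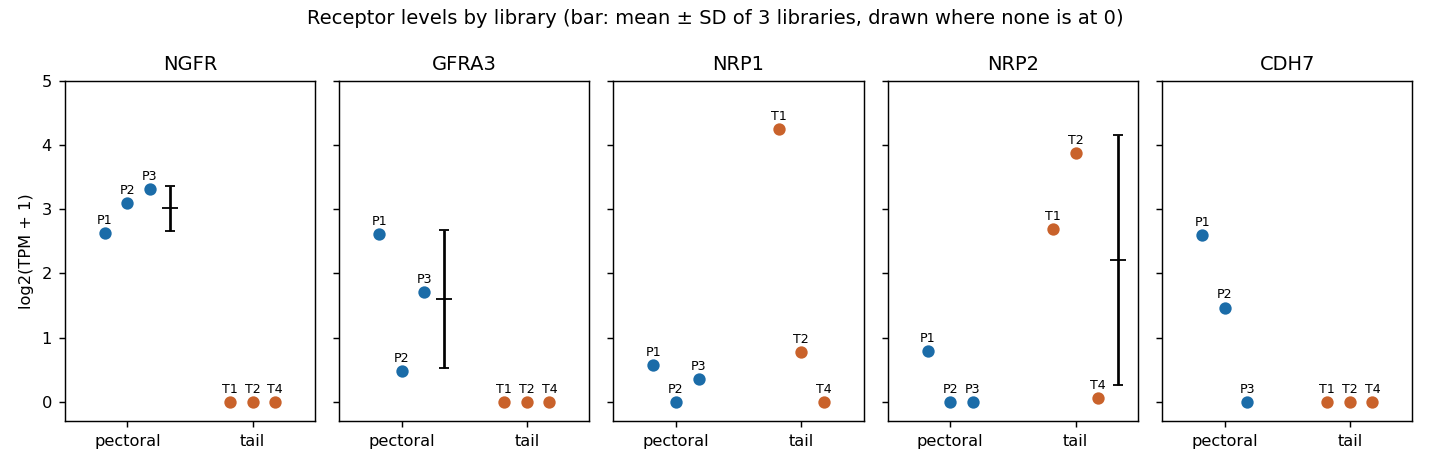
Level of each receptor on the log2(TPM + 1) scale, with 1 point for each pectoral (P) and tail (T) library. The black bar is the mean ± SD of 3 libraries and is drawn where none is at 0. NGFR stands at 5.16 to 8.96 TPM in all 3 pectoral libraries and at 0 in all 3 tail libraries, whereas NRP1 reaches 18.03 TPM in tail replicate 1.

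NGFR, also called p75, is the low-affinity receptor shared by the neurotrophins and is made by developing motor neurons in birds and mammals. Its row, TRINITY_DN18143_c9_g2_i4, had 5.16, 7.58 and 8.96 TPM in pectoral replicates 1, 2 and 3, and tail replicates 1, 2 and 4 each listed it at 0. Every pectoral library lay above every tail library, and the highest pectoral value was 1.74 times the lowest. The pectoral mean was 7.23 ± 1.92 TPM (SD, n = 3), and in each pectoral library 89.9% to 90.6% of rows were lower. The difference of mean log2(TPM + 1), pectoral minus tail, was 3.01 (SE 0.97, 95% interval 1.03 to 5.0, limma adjusted p = 0.487 over all tested rows). With no minimum, over all 7080 rows, the interval was 1.01 to 5.02 (limma adjusted p = 0.554). An exact two-sided permutation test gave p = 0.1, the smallest that 3 libraries against 3 allow. Every pectoral library lay above every tail library in 4.18% of tested rows and in 4.60% of all rows. In the authors' deposited table the row's p-value was 0.00286, the 28th lowest of 7080. No adjustment for the number of rows is named with that value, and the tail libraries, all at 0, had no spread. From lowest to highest deposited p-value, GFRA3 took place 633, NRP2 place 1097, CDH7 place 1119 and NRP1 place 2613.

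Rows listed at 0 in all tail libraries and above 0 in all pectoral libraries numbered 74, or 1.05% of the table. When the 487 rows at 0 in the tail were ordered by their lowest pectoral value, NGFR came 3rd, behind 2 undescribed rows with lowest values of 8.86 and 6.0 TPM. It was the highest row with a description in that order. The next one, described as PRP4 pre-mRNA processing factor 4 homolog, had a lowest pectoral value of 2.87 TPM.

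The NGFR contig shares its Trinity cluster, a set of contigs that the assembler built from overlapping reads, with 3 other rows of the table. TRINITY_DN18143_c9_g1_i1, which carries no description, had 48.6, 94.5 and 95.2 TPM in the pectoral group and 0.152, 0 and 0 TPM in the tail group. Its log2 difference of 6.20 (SE 0.91, 95% interval 4.34 to 8.06) passed over all rows (limma adjusted p = 0.000448), 1 of 2 rows that passed higher in pectoral libraries. It passed in 18 of the 19 alternatives in which it was tested, and not in the fit without pectoral replicate 1 and tail replicate 4 together (difference 6.48, limma adjusted p = 0.394). With the filter repeated it was not tested in the 3 fits without a pectoral library, since it too reached 1 TPM in pectoral libraries alone. In pectoral replicates 1, 2 and 3 it was 9.42, 12.5 and 10.6 times the NGFR row. The table gives this row no gene name, and whether it belongs to the same transcript as NGFR was not tested.

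The other rows, both from the same Trinity gene as NGFR, differed from each other. TRINITY_DN18143_c9_g2_i2, undescribed, had 2.20, 1.30 and 1.28 TPM in the pectoral group, and each tail library listed it at 0 (log2 difference 1.36, SE 0.53, limma adjusted p = 0.574). This row, like NGFR, met the minimum for the test through its pectoral libraries alone. TRINITY_DN18143_c9_g2_i5, described as cugbp, Elav-like family member 5a, an RNA-binding protein unrelated to NGFR, had 0.550, 5.72 and 3.72 TPM in the pectoral group and 0.314, 0.763 and 1.82 TPM in the tail group. Thus 1 Trinity gene held rows matched to unrelated proteins, and the groups overlapped in the row with the Elav-like match. The NGFR row carried 65.3%, 51.9% and 64.2% of the summed TPM of this Trinity gene in pectoral replicates 1, 2 and 3. The summed level was 7.91 to 14.6 TPM in pectoral and 0.314 to 1.82 TPM in tail libraries, a log2 difference of 2.77. In the tail both the NGFR row and the undescribed row of this Trinity gene were listed at 0. The summed tail level came from the row with the Elav-like match alone, which had signal in every tail library. Of the 6645 Trinity genes in the table, 361 have several rows.

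**Figure D2:**
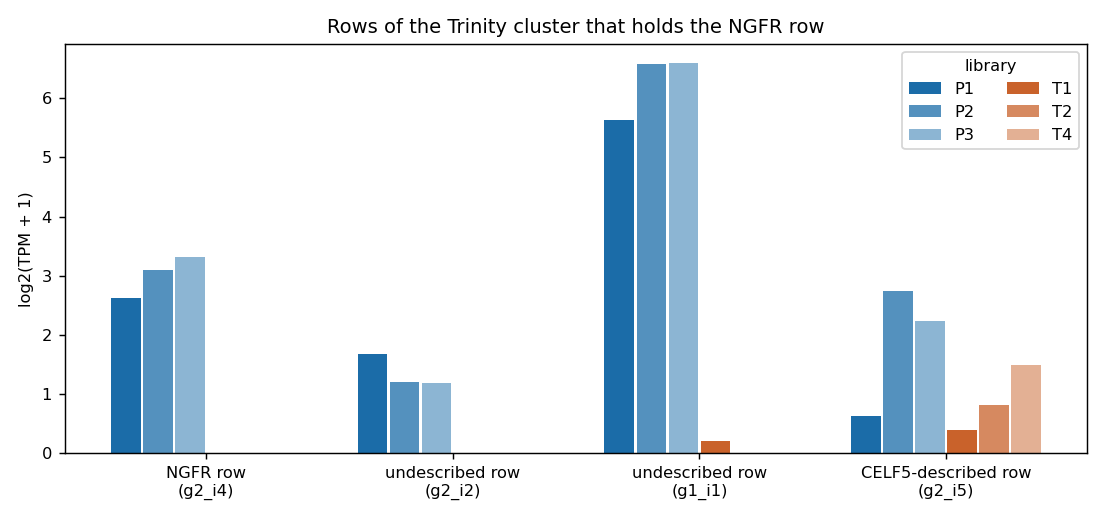
Bars give log2(TPM + 1) in the 6 libraries for the 4 rows of the Trinity cluster that holds the NGFR row, labelled by the end of their contig name (P pectoral, T tail). In 3 of the 4 rows tail libraries are at 0 or at no more than 0.152 TPM, while the row described as an Elav-like protein has signal in all 6 libraries.

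GFRA3 belongs to the GDNF receptor alpha family, which binds ligands at the membrane and signals through the receptor tyrosine kinase RET. In mammals it is the receptor of artemin and is best known from sensory and sympathetic neurons. Its row, TRINITY_DN17729_c5_g2_i2, had 5.16, 0.391 and 2.25 TPM in the pectoral group, and each tail library listed it at 0. All pectoral libraries were above all tail libraries, but the highest pectoral value was 13.2 times the lowest. In pectoral replicate 1 it equalled NGFR to 3 digits, and in pectoral replicate 2 NGFR was far higher. GFRA3 reached 1 TPM in 2 libraries and was therefore not tested in the main comparison. Its log2 difference was 1.60 (exact permutation p = 0.1), and in a fit over all 7080 rows the 95% interval was -0.07 to 3.27 (limma adjusted p = 0.942). That fit called 0.0424% of rows. With 1 TPM required in 2 libraries instead, a filter chosen after seeing the data that called 0.0569% of 5275 rows, GFRA3 had a limma adjusted p of 0.847. It met that filter through pectoral libraries alone.

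A second row of the same Trinity gene as GFRA3 had no description. This row, TRINITY_DN17729_c5_g2_i1, had 4.90, 0 and 0.641 TPM in the pectoral group and was at 0 throughout the tail group. Summed over this Trinity gene the level was 10.1, 0.391 and 2.90 TPM in pectoral replicates 1, 2 and 3 (log2 difference 1.97). A row of the same cluster but of another Trinity gene, TRINITY_DN17729_c5_g1_i1, had 1.90, 0.272 and 0.0544 TPM in the pectoral group and 0.0592, 0.0198 and 0 TPM in the tail group. In all 3 rows of the cluster pectoral replicate 1 was the highest library. RET, the shared signalling partner, had no described row and was not analysed here.

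CDH7 encodes a type II cadherin, and in chick its family members mark subsets of motor neurons. Its row, TRINITY_DN15379_c0_g1_i1, had 5.05, 1.77 and 0 TPM in the pectoral group, and each tail library listed it at 0. Pectoral replicate 3 and the tail libraries were thus tied at 0, and the groups were not separated. The log2 difference was 1.36 (exact permutation p = 0.4), with a 95% interval of -0.13 to 2.84 in the fit over all 7080 rows (limma adjusted p = 0.942). Without pectoral replicate 1 the difference was 0.73.

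Other cadherin rows did not share the zeros of CDH7 in the tail. CDH6, another type II cadherin, had 1.75, 0 and 1.62 TPM in the pectoral group and 0.108, 0.0464 and 0.309 TPM in the tail group. CDH10, also of type II, had 1.83, 0.417 and 0.745 TPM in the pectoral group and 0.162, 1.01 and 0.574 TPM in the tail group. The CDH6 and CDH10 rows came from the same Trinity cluster, and whether they are separate genes was not tested. CDH11, found in mesenchyme and in neurons, had 1.13, 1.33 and 8.17 TPM in the pectoral group and 9.71, 0.182 and 0 TPM in the tail group. Each of these 3 rows had overlapping groups, and log2 differences of 0.75, 0.31 and 0.62 in the order given. CDH11 was the 1 of them that could be tested (SE 1.08, limma adjusted p = 0.92).

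The neuropilins had their highest values in tail libraries. NRP1 is a co-receptor for secreted semaphorins and for VEGF, and is found on motor axons as well as on vessels. The NRP1 row, TRINITY_DN5137_c0_g1_i1, had 0.485, 0 and 0.273 TPM in the pectoral group and 18.03, 0.702 and 0 TPM in the tail group. Tail replicate 1 alone was high, and the other 5 libraries lay under 1 TPM with overlapping groups. The log2 difference was -1.37 (exact permutation p = 0.5), with a 95% interval of -3.22 to 0.49 in the fit over all 7080 rows (limma adjusted p = 0.942). Without tail replicate 1 the difference was -0.08.

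NRP2, a second neuropilin that binds other semaphorins of the secreted class, was high in 2 tail libraries. Its row, TRINITY_DN17999_c10_g1_i2, had 0.722, 0 and 0 TPM in the pectoral group and 5.45, 13.7 and 0.0401 TPM in the tail group. Tail replicates 1 and 2 were above every pectoral library, while tail replicate 4 lay below pectoral replicate 1, so the groups overlapped. The log2 difference was -1.95 (exact permutation p = 0.2), with a 95% interval of -3.92 to 0.03 in the fit over all 7080 rows (limma adjusted p = 0.942). In fits without tail replicate 4 and without tail replicate 2 the difference was -3.02 and -1.11. Neither neuropilin shared its Trinity cluster with another row.

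By median TPM of the single receptor rows the order in pectoral libraries was NGFR at 7.58, GFRA3 at 2.25, CDH7 at 1.77, NRP1 at 0.273 and NRP2 at 0. The other rows of the Trinity genes of NGFR and GFRA3 are not counted in this order. GFRA3 and CDH7 overlapped across their 3 libraries, as did NRP1 and NRP2. NGFR lay above GFRA3 and CDH7 in pectoral replicates 2 and 3, while in replicate 1 these rows were nearly level at 5.16, 5.16 and 5.05 TPM. In tail libraries NRP2 had a median of 5.45 TPM and NRP1 of 0.702 TPM, with overlapping values, and the other 3 receptors were at 0.

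Single libraries weighed on these patterns. In 4 of the 5 receptors the highest pectoral value was in pectoral replicate 1, as in 54.9% of all rows, and NGFR was the exception. All 5 receptors were above 0 in pectoral replicate 1, as were 7075 of 7080 rows. Tail replicate 4 listed 4 of the 5 receptors at 0, and 50.17% of all rows. Without both of these libraries, an alternative chosen after seeing the data, the log2 differences were 3.21 for NGFR, 1.09 for GFRA3, 0.73 for CDH7, -2.33 for NRP1 and -3.28 for NRP2, from 2 libraries in each group. Rows at 0 count as lower in such a ranking, so a low TPM can exceed many rows. NRP1 in pectoral replicate 3, at 0.273 TPM, exceeded 48.0% of rows, and at 0.485 TPM in pectoral replicate 1 it exceeded 2.9%.

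**Figure D3:**
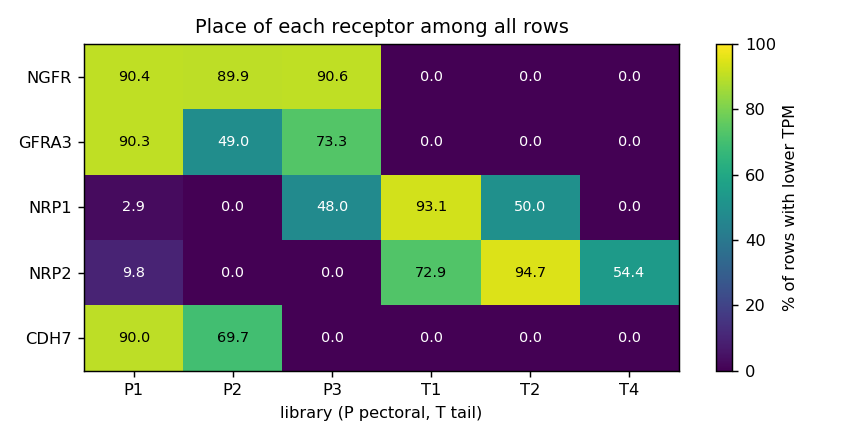
Share of the 7080 rows with a lower TPM than each receptor, in percent, by library (P pectoral, T tail), where dark cells are low and a receptor at 0 has 0%. NGFR lies above 89.9% to 90.6% of rows in the pectoral libraries, NRP1 above 93.1% in tail replicate 1 and NRP2 above 94.7% in tail replicate 2.

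Genes of the same pathways were read from 7 lists with 282 genes, of which 28 had a described row, the 5 receptors included. Of these 28, 14 were tested and 0 passed in either direction, while 3 had an unadjusted p under 0.05 (NGFR, EFNB1 and TENM3). At that level lay 7.04% of all tested rows. NGFR entered the test through the group where it was high, so its place among these 3 is a description. The median log2 difference over the 28 rows was 0.36, against 0.06 over all 7080 rows. Groups did not overlap in 4 of the 28 with pectoral higher (NGFR, GFRA3, TRAF6 and CNTFR) and in 1 with tail higher (EFNB1), against 4.60% and 4.19% of all rows. The median and these counts include the 5 receptors, and receptors and lists alike were chosen with earlier results of these data known. Among the other 23 genes, 2 were separated with pectoral higher and 1 with tail higher. Among tested rows 7.60% were separated with tail higher.

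In the neurotrophin list 2 of 23 genes had a row, NGFR and TRAF6, an adaptor that binds NGFR inside the cell. TRAF6, too low to test, had 0.981, 5.53 and 0.0332 TPM in the pectoral group and was at 0 throughout the tail group. The Trk receptors and the neurotrophins themselves had no described row. In the GDNF family list GFRA3 was the 1 of 17 genes with a row.

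Semaphorin pathway genes with a row numbered 4 of 53, the neuropilins included, of which 2 were tested and 0 passed, with a median log2 difference of -1.32 over the 4. No semaphorin or plexin had a described row. DPYSL5 and DPYSL3, cytosolic proteins of growth cones from the family that relays semaphorin signals, had rows. DPYSL5 had 1.14, 6.04 and 14.04 TPM in the pectoral group and 6.21, 11.4 and 34.1 TPM in the tail group (log2 difference -1.26, SE 0.98, limma adjusted p = 0.867). DPYSL3 had 1.68, 2.16 and 52.5 TPM in the pectoral group and 7.23, 7.91 and 1.30 TPM in the tail group (log2 difference 0.48, SE 1.09, limma adjusted p = 0.951). Both had overlapping groups.

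Other guidance genes with a row numbered 5 of 52, of which 3 were tested and 0 passed, with a median log2 difference of -0.94. EFNB1, a membrane-bound ligand of Eph receptors, had 1.01, 5.08 and 0.0485 TPM in the pectoral group and 6.52, 10.3 and 16.4 TPM in the tail group. Every tail library lay above every pectoral library (log2 difference -2.29, SE 1.0, 95% interval -4.33 to -0.24, limma adjusted p = 0.624). DRAXIN, a secreted axon repellent, had 2.82, 3.06 and 3.58 TPM in the pectoral group and 18.9, 16.7 and 0.431 TPM in the tail group, with tail replicate 4 below the pectoral libraries. NTN1, the floor plate attractant netrin, had 1.49, 2.41 and 8.73 TPM in the pectoral group and 2.51, 0.339 and 0.0579 TPM in the tail group, with overlapping groups. EFNB2, a relative of EFNB1, had 1.55, 0 and 0 TPM in the pectoral group and 0.689, 12.1 and 0 TPM in the tail group. It was too low to test, and its groups overlapped too.

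Of the cadherin and catenin list 7 of 54 genes had a row, 3 were tested and 0 passed, with a median log2 difference of 0.42 over the 7. CTNNA1, the catenin that ties cadherins to actin, had 0.960, 24.4 and 0.841 TPM in the pectoral group and 39.8, 1.44 and 0 TPM in the tail group. In each group 1 library was high, and the log2 difference was -0.04 (95% interval -2.51 to 2.43). PCDH17, a protocadherin, had 6.75, 1.03 and 3.61 TPM in the pectoral group and 12.7, 3.23 and 18.8 TPM in the tail group, again overlapping.

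In the list of immunoglobulin and matrix adhesion receptors 4 of 61 genes had a row, 3 were tested and 0 passed, with a median log2 difference of 0.36 over the 4. TENM3, a teneurin that matches axons to targets in mouse, had 33.2, 2.81 and 17.4 TPM in the pectoral group and 4.94, 2.65 and 0 TPM in the tail group (log2 difference 2.26, SE 1.04, 95% interval 0.15 to 4.38, limma adjusted p = 0.647). Pectoral replicate 2 lay within the tail range. NCAM1, a general neural adhesion molecule, had 7.52, 1.61 and 12.6 TPM in the pectoral group and 32.3, 12.8 and 0.555 TPM in the tail group. NEGR1, a glycolipid-anchored adhesion protein of neurons, had 1.28, 0.183 and 0.168 TPM in the pectoral group and 1.94, 0.738 and 10.2 TPM in the tail group. CADM3, of synaptic adhesion, had 0.744, 9.20 and 0.590 TPM in the pectoral group and 1.36, 0.135 and 0 TPM in the tail group. None of these 4 had separated groups.

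Further trophic factor receptors with a row numbered 5 of 24, of which 2 were tested and 0 passed, with a median log2 difference of 0.66 over the 5. CNTFR, the receptor subunit for ciliary neurotrophic factor, which supports motor neurons in mammals and chick, had 2.34, 2.34 and 1.68 TPM in the pectoral group and 1.55, 0.127 and 0.0866 TPM in the tail group. Its groups did not overlap (log2 difference 1.09, SE 0.80, 95% interval -0.54 to 2.71, limma adjusted p = 0.867). TNFRSF21, a death receptor of the same superfamily as NGFR, had 3.89, 6.99 and 4.14 TPM in the pectoral group and 6.96, 3.58 and 14.6 TPM in the tail group, with overlapping groups. FGFR2 had 1.96, 0 and 2.02 TPM in the pectoral group and 0.927, 0 and 0 TPM in the tail group, and FGFR4 had 1.62, 1.64 and 0 TPM against 0.738, 0 and 0 TPM. Both are receptors for fibroblast growth factors, and both were too low to test and overlapped.

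**Figure D4:**
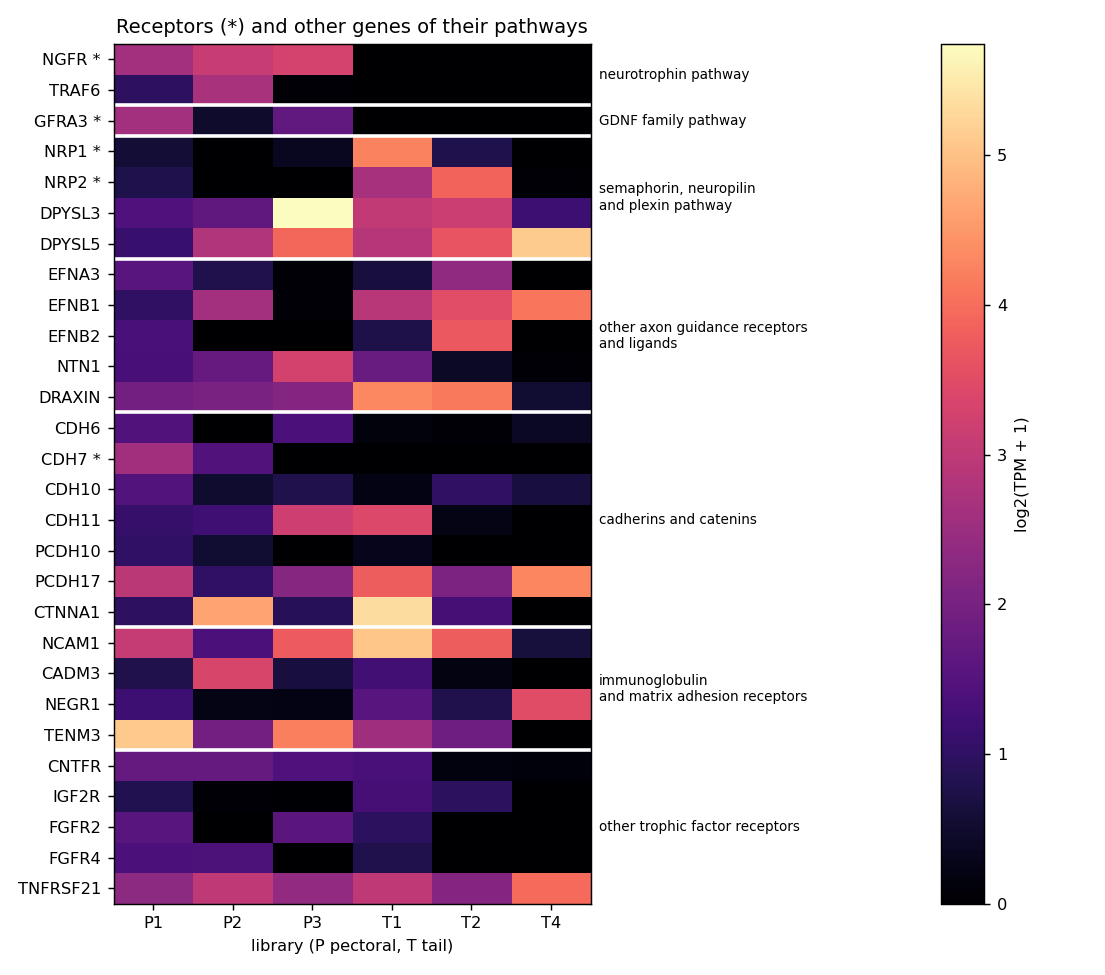
Level on the log2(TPM + 1) scale, by colour, of the 28 pathway genes with a described row in the 6 libraries (P pectoral, T tail), grouped by list, with the 5 receptors starred. NGFR and EFNB1 are separated in opposite directions, at 5.16 to 8.96 TPM against 0 and at 0.0485 to 5.08 TPM against 6.52 to 16.4 TPM.

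Markers of other cell types that make these receptors were sparse. Of 21 sensory neuron markers 2 had a row, TAC1 and CALCA, and their summed level was 1.49 to 3.02 TPM in pectoral and 0 to 0.384 TPM in tail libraries. TAC1, a neuropeptide precursor, had 1.24, 1.49 and 1.69 TPM in the pectoral group and 0.0900, 0 and 0 TPM in the tail group. It was thus separated in the same direction as NGFR and GFRA3, as were 4.60% of all rows, and it did not pass (limma adjusted p = 0.602). TAC1 too was tested through its pectoral libraries alone. CALCA had 1.78, 0 and 0 TPM in the pectoral group and 0.294, 0 and 0 TPM in the tail group, with overlapping groups. Whether these 2 rows stemmed from sensory neurons or from cells of the spinal cord was not tested, nor was their part in the receptor results. Of 13 Schwann cell and neural crest markers 1 had a row, GAP43, which neurons also express, at 17.1 to 43.7 TPM in pectoral and 4.61 to 42.95 TPM in tail libraries. Of 16 endothelial markers, the cells in which NRP1 is also found, 0 had a described row.

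The remaining marker lists overlapped between the groups, with 1 exception. Progenitor and radial glia markers, with 6 of 16 genes in the table, summed to 73.6 to 117 TPM in pectoral and 22.7 to 54.9 TPM in tail libraries. In pectoral libraries most of that sum came from ID4, an inhibitor of bHLH factors, and FABP7, a fatty acid binding protein. ID4 had 72.6, 30.3 and 76.9 TPM in the pectoral group and 14.4, 22.4 and 0.309 TPM in the tail group. FABP7 had 9.62 to 41.1 TPM in pectoral and 5.74 to 20.97 TPM in tail libraries. SOX2 reached 13.98 TPM in tail replicate 1 and SOX9 19.4 TPM in tail replicate 2. The list was mixed gene by gene. Mean log2 values were higher in tail libraries for 3 of the 6. Their differences were -1.41 for SOX2, -1.68 for SOX9 and -0.64 for PAX6, all with overlapping groups. The other 3 were higher in pectoral libraries, ID4 by 2.86, FABP7 by 1.23 and SHH by 1.06. Of these ID4 alone had separated groups, as in 4.60% of all rows, and it did not pass (limma adjusted p = 0.487). The median difference was 0.21 over the 6 rows and -0.64 over the 5 tested. The part of these markers in the receptor differences was not tested. Interneuron markers (4 of 22) summed to 0.681 to 34.2 TPM against 5.38 to 40.3 TPM, and limb motor column markers (3 of 8) to 2.10 to 3.90 TPM against 0.00987 to 16.5 TPM. The limb motor column list was mixed too. FOXP1 had 0.940, 0 and 3.90 TPM in the pectoral group and was at 0 throughout the tail group, as were 6.88% of all rows. ALDH1A2, at 14.9 TPM in tail replicate 1, and LHX1 had higher tail means (log2 differences -1.04 and -0.36). All of these overlapped. Mesenchyme and muscle markers (2 of 19) summed to 25.4 to 82.4 TPM against 13.5 to 51.4 TPM, and the 1 blood cell marker of 15 with a row stood at 0.698 to 3.31 TPM against 0.146 to 3.74 TPM.

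The described rows nearest in pattern to each receptor were found by the root mean square difference of centred log2(TPM + 1) values over the 6 libraries, among 1120 rows with a mean of at least 1 TPM. This is a description, because all rows share the same libraries and the nearest rows were picked for their likeness. Nearest to NGFR were the rows of HOXB7 and FOXP2 (0.35 log2 units each), both transcription factors, and FZD7, a Wnt receptor (0.41). The FOXP2 row came from the same Trinity cluster as the FOXP1 row given above. FZD7 had 3.94, 12.3 and 7.78 TPM in the pectoral group and 0.732, 0 and 0 TPM in the tail group. Each of these 3 rows had separated groups like NGFR, which the way they were picked favoured. Separation with pectoral higher was found in 4.60% of all rows. Of the 3 rows 0 passed over all rows (limma adjusted p = 0.542 for each), and all 3 met the minimum for the test through pectoral libraries alone.

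The rows nearest to GFRA3 were those of a platelet-activating factor acetylhydrolase subunit (0.14), ATPase inhibitory factor 1a (0.21) and a FAM-family protein (0.31). For CDH7 the nearest were a subunit of the BLOC-1 complex (0.24), a calponin homology and coiled-coil protein (0.24) and an assembly factor of respiratory complex I (0.26). NRP1 was nearest to endothelial differentiation-related factor 1 (0.30), flotillin 1b (0.30) and NIP7 (0.36). The rows nearest to NRP2 were mitochondrial ribosomal protein S15 (0.11), dynamin 1-like (0.15) and TGFB-induced factor homeobox 1 (0.28).

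**Figure D5:**
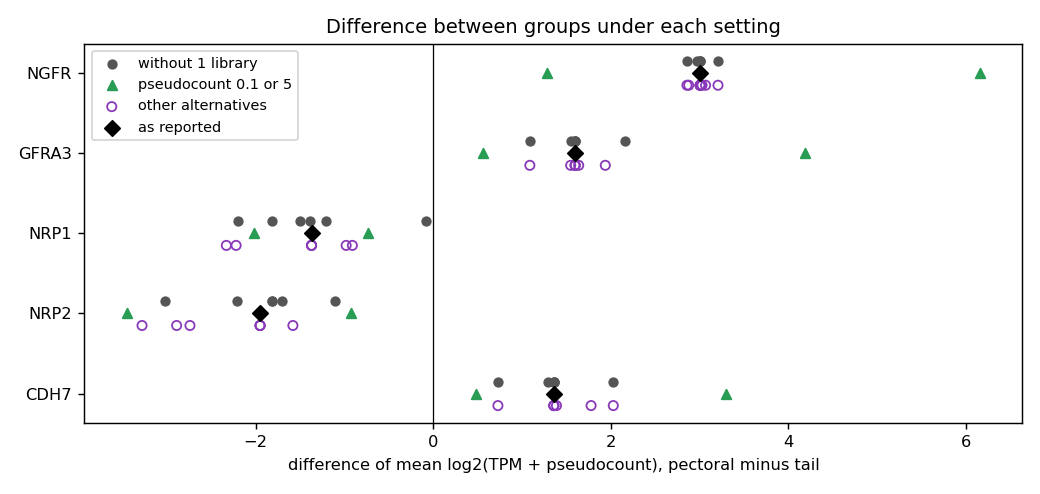
Difference of mean log2(TPM + pseudocount), pectoral minus tail, for each receptor under each setting, where black diamonds are the reported values, grey points leave out 1 library, green triangles change the pseudocount and open circles are the other alternatives. All points keep their side of 0, and the point nearest to 0 is NRP1 without tail replicate 1, at -0.08. NGFR, GFRA3 and CDH7 are at 0 in all 3 tail libraries, so no left-out library or pseudocount could turn them negative.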

How the data were processed

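RNA from 6 libraries was made with a kit for very small samples and TruSeq stranded mRNA chemistry, per the labels' protocols. The authors deposited TPM for each library and a p-value for each row. Trimmomatic 0.33, Salmon 0.8.2 and edgeR 3.18.1 are named, without roles, per the submitters' processing notes. The sources used here do not give the assembly reads, the protein search or how rows were selected. Of 7081 rows 1 exact repeat was removed. Descriptions (1576 rows) were matched by hand to symbols. 0 accessions matched the skate reference gene table.

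limma 3.58.1 in R 4.3.3 (empirical Bayes, mean-variance trend) was fitted on log2(TPM + 1) over the 3752 rows that reached 1 TPM in 3 or more libraries, two-sided, and rows with an adjusted p under 0.05 (Benjamini-Hochberg) were called. On this scale the changes of low rows are understated. Exact permutation tests used all 20 assignments. The fit was tested on simulated data. Members, gene lists and tests were chosen with earlier results of these data known. Named were the receptors, rows of their Trinity clusters, other cadherin rows, up to 4 genes per list (highest mean TPM) and the 3 nearest rows in pattern. Alternatives covered scaling, pseudocount, filter, variance model, library weights, replicate block and left-out libraries.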

Additional observations from a re-analysis of the deposited data

How the results depend on the processing

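Direction was the same for all 5 receptors under every alternative that gave a value. For NGFR, GFRA3 and CDH7, at 0 in all 3 tail libraries, no left-out library or pseudocount could turn the difference negative. Their constant direction is therefore no measure of robustness. NGFR ranged from 1.28 (pseudocount 5) to 6.16 (pseudocount 0.1), and from 2.86 to 3.21 without 1 library. Its limma adjusted p ran from 0.0908 with array weights to 0.773 over 19 alternatives. The library weights in that first fit were 2.28 for tail replicate 2, 2.24 for pectoral replicate 1 and 0.414 to 0.912 for the others. The TPM of pectoral replicate 1 may not compare directly with the other libraries. With the filter repeated NGFR was not tested without a pectoral library. The other receptors were not tested in most fits. Without 1 library GFRA3 ranged from 1.09 to 2.16, CDH7 from 0.73 to 2.03, NRP1 from -2.20 to -0.08 and NRP2 from -3.02 to -1.11. With pseudocounts of 0.1 and 5 GFRA3 was 4.19 and 0.56, CDH7 3.30 and 0.48, NRP1 -2.02 and -0.73, and NRP2 -3.45 and -0.93. Quantile scaling gave the untested rows no value. Pathway gene calls were 0 wherever a list had a tested member, which was in 22 alternatives for 5 lists, 19 for the neurotrophin list and 2 for the GDNF family list. A filter of 1 TPM in 2 libraries, chosen after seeing the data, let GFRA3, NRP2 and CDH7 into the test. Their limma adjusted p was 0.847, 0.865 and 0.865 in that order, with 0.0569% of 5275 rows called. GFRA3 and CDH7 met that filter through pectoral libraries alone and NRP2 through tail libraries alone, each the group where it was high.

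Over all rows, 2 passed higher in pectoral and 1 higher in tail libraries. Those counts were 2 and 0 with median-ratio scaling, 3 and 0 with quantile scaling, 1 and 0 with pseudocount 0.1, 1 and 1 with pseudocount 5, 1 and 0 with no variance trend, and 11 and 15 with array weights. Without pectoral replicate 1 and tail replicate 4 together, chosen after seeing the data, they were 0 and 0. Without 1 library they ranged from 1 to 3 higher in pectoral and from 0 to 2 higher in tail, and from 0 to 3 and 0 to 2 with the filter repeated, also chosen after seeing the data. The cause was not tested. The median log2 difference over tested rows was -0.18, and 0.14 with median-ratio and 0 with quantile scaling. With the replicate block 1 and 0 passed and NGFR was 2.86 (limma adjusted p = 0.472). Whether the shared numbers pair the libraries is not given in the labels. Deviations from the group mean correlated at -0.03 and 0.00 between same-numbered libraries across tested rows. Between differently numbered libraries they correlated at -0.04 to 0.05. With so few libraries in each group, these values cannot tell whether libraries were paired.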

Other observations

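Some rows close to these pathways lay outside the gene lists and were picked by their description. DOK6, an adaptor that binds RET in mammals, had 2.41, 0.798 and 0 TPM in the pectoral group, and each tail library listed it at 0, the library order seen for CDH7. LRRN1, a leucine-rich repeat membrane protein of the nervous system, had 1.79, 0 and 1.74 TPM in the pectoral group and 11.6, 32.5 and 0 TPM in the tail group (log2 difference -1.93, limma adjusted p = 0.836). Midkine, a heparin-binding growth factor, had 17.2, 35.6 and 41.7 TPM in the pectoral group and 44.9, 45.8 and 8.08 TPM in the tail group, with overlapping groups (log2 difference 0.18, limma adjusted p = 0.984). KIRREL, of the immunoglobulin superfamily, had 0.437, 0 and 0 TPM in the pectoral group and 0, 3.21 and 0 TPM in the tail group. TNR, a matrix glycoprotein, had 0.838, 0 and 0.0811 TPM in the pectoral group and 2.66, 0.506 and 0 TPM in the tail group.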
